A study of Mus musculus with 3 samples.

Results

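The comparison described here is that of methionine added to dialyzed medium. The cells were CD4 T cells of C57BL/6 mice, taken from the spleen and the lymph nodes, activated with anti-CD3/CD28 antibody at 2 µg/ml, and kept in culture for 72 h. Of the 6 libraries, 4 enter the comparison, namely both libraries of the dialyzed medium (DM) and both of DM to which 30 µM methionine was added (DM+Met). The comparison covers every gene row, whatever its value. According to the study's methods, DM was made from a medium base without amino acids and dialyzed fetal bovine serum. DM therefore differs from complete medium in more than its methionine, and DM+Met shares all of this apart from the methionine added. The study also reports that DM still contained some methionine, so the comparison is of less methionine with more, not of none with some. The remaining 2 libraries, from complete medium (CM, RPMI-1640 with fetal bovine serum), are given beside some values and entered the estimate of the spread. Each medium is 1 sample in the labels with 2 library files. The study describes 2 biologically independent samples, and the files were taken as these. Neither age nor sex is in the labels, and if the files share a culture, the p-values measure technical spread alone.

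Methionine is an essential amino acid that starts protein chains and, as S-adenosylmethionine, donates the methyl groups used on DNA, RNA and histones. Activated T cells take it up through amino acid transporters, and also use its carbon and sulfur for polyamines and, by transsulfuration, for cysteine and glutathione. A T cell leaving quiescence raises glucose uptake and glycolysis, in part under the hypoxia-inducible factor HIF-1, whose targets include the glucose transporters, most glycolytic enzymes and the prolyl hydroxylases that mark HIF for destruction.

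Of 23282 gene rows, 12770 had enough reads to be tested. The test called 7 of them at an adjusted p below 0.05 (limma, two-sided, Benjamini-Hochberg), which is 0.0548% of the rows. Higher in DM+Met were Gh, Ctse, Rplp1, H2-Q9 and Rps15a. Lower were Egln3 and the pseudogene row Rps15a-ps6. The calls rest on the spread of all 6 libraries. With the 4 DM and DM+Met libraries alone, and without any 1 of the 6, the count was 0. The changes themselves had the same sign in each of these cases. For rows whose media do not overlap, as in these 7, this was fixed in advance and adds no evidence. At an unadjusted p below 0.05 there were 549 rows higher (4.3%) and 689 lower (5.4%). Both DM+Met libraries lay above both DM libraries in 20.4% of all rows and below both in 20.6%, which is the background for the counts of gene groups given below.

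The libraries held 8504742 to 12377285 reads. Of the CD4 T cell markers, 8 had rows. Cd3d lay between 8.68 and 9.01 in all 4 libraries on the log2(TMM CPM + 1) scale, in which 1 unit is a doubling for well-read genes. Of the 8 markers, 4 had a higher mean in DM+Met and 4 a lower one, with 2 not overlapping in each direction. Their changes ran from -0.29 to 0.59, the highest being that of Cd4. The summed level of the 8 markers was 2257 to 2578 CPM in DM and 2450 to 2466 CPM in DM+Met. The T cell receptor constant regions had no row. The DM libraries differed from each other more than the DM+Met libraries did. A difference of at least 1 log2 unit separated DM library 1 from DM library 2 in 22.1% of the rows, but the DM+Met libraries in 7.17%. For the CM libraries it was 20.1%, and between the DM+Met and DM means 10.9%. Over the tested rows, the DM libraries correlated with each other at 0.919. DM library 2 correlated with the DM+Met libraries at 0.947 and 0.940, and DM library 1 at 0.925 and 0.921. Each DM library was thus closer to both DM+Met libraries than to the other DM library by this measure. Of 1394 rows with mean changes of 1 or more, 682 kept that size in the same direction against each DM library, 229 higher and 453 lower. The row Rn45s, the precursor of ribosomal RNA, held 37.2% and 38.3% of the reads in DM and 15.5% and 20.1% in DM+Met. Scaling by library totals instead of TMM moved the median change of all rows from 0.01 to 0.34, and with Rn45s left out of the totals it was -0.02. In bulk RNA, fewer cells of a type and less RNA per cell cannot be told apart.

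**Figure D1:**
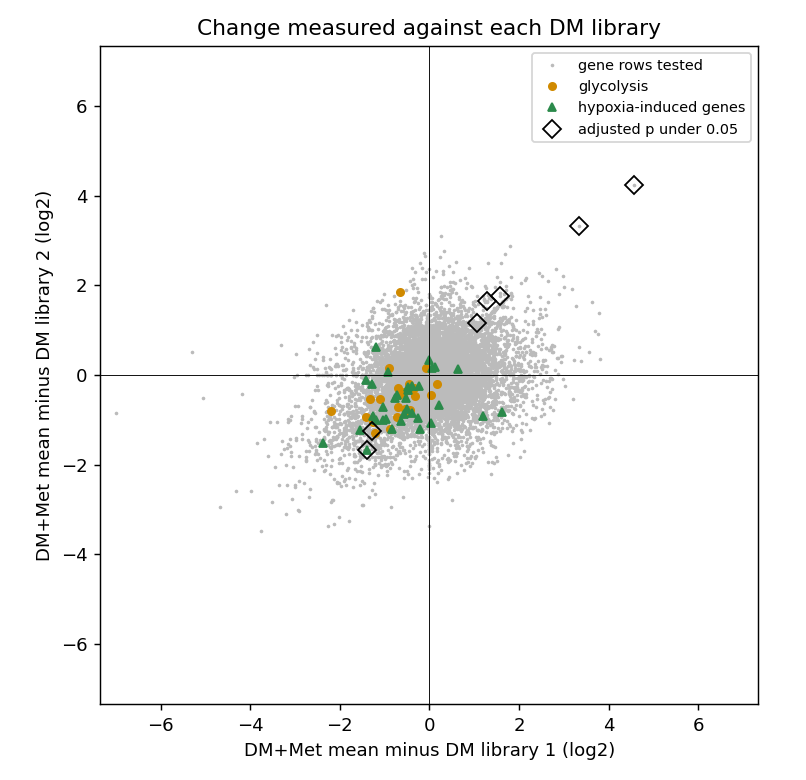
Change of each tested gene row, the DM+Met mean minus DM library 1 on the x axis and minus DM library 2 on the y axis, both in log2 units. Grey points are the 12770 rows, coloured symbols the glycolysis and hypoxia-induced genes, and diamonds the 7 called rows, which lie in the upper right and lower left, with the same sign against both libraries. Rows whose media do not overlap always have the same sign against both.

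Egln3 encodes PHD3, a prolyl hydroxylase that acts on HIF and is itself a HIF target. Its level was 7.45 and 7.72 in the DM libraries against 6.01 and 6.09 with methionine. Both DM+Met libraries were below both DM libraries, and CM, at 7.62 and 7.77, stood with DM. Egln3 fell by 1.53 on the log2 scale (SE 0.18, n = 2 per medium, adjusted p = 0.0149). The change was -1.40 against DM library 1 and -1.67 against DM library 2, and -1.57 (adjusted p = 0.0145) when the scaling left out Rn45s. The gene lies on chr12:54178981-54203860 (GRCm38, minus strand).

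The genes that hypoxia is known to induce, Egln3 among them, mostly had lower means in DM+Met. Of 34 tested, 28 had a lower mean in DM+Met and 6 a higher one, and the median change was -0.61, beside 0.01 over all rows. In 21 of the 34, both DM+Met libraries lay below both DM libraries, and in 3 above. At an unadjusted p below 0.05, 16 were lower and 0 higher. Only Egln3 passed the adjusted threshold. The median was -0.55 against DM library 1 and -0.73 against DM library 2, -0.26 with library totals and -0.66 without Rn45s.

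Hilpda, which encodes a lipid droplet protein, was at 8.44 and 8.26 in DM and at 7.19 and 7.32 in DM+Met (change -1.10, SE 0.16, adjusted p = 0.0560). Egln1, which encodes PHD2, the main HIF prolyl hydroxylase, was at 7.77 and 7.73 in DM and at 6.66 and 6.81 in DM+Met (change -1.01, SE 0.16, adjusted p = 0.0747). For both genes the media did not overlap, and the adjusted p missed the threshold. Ero1l, an oxidase for disulfide bonds in the endoplasmic reticulum, was at 6.61 and 6.98 in DM and at 5.68 and 5.89 in DM+Met (change -1.01, adjusted p = 0.158). Ak4, a mitochondrial adenylate kinase, was at 5.39 and 5.07 in DM and at 3.91 and 3.78 in DM+Met (change -1.38, adjusted p = 0.213). The mean of Hif1a itself differed by -0.24 and that of Vegfa by -0.23. The genes with higher means were Mxi1, Plod2, P4ha2, Cited2, Kdm3a and Adm, with changes of 0.11 to 0.40. Hif1a, Vegfa and these 6 were named after their values were seen.

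Glycolysis genes were also mostly lower in DM+Met. Of 24 tested, 22 had a lower mean in DM+Met, 19 had both DM+Met libraries below both DM libraries, and 0 had both above. At an unadjusted p below 0.05, 14 were lower and 0 higher, and none passed the adjusted threshold. The median change was -0.58, -0.67 against DM library 1, -0.49 against DM library 2, -0.21 with library totals and -0.62 without Rn45s. The summed level of the 24 genes was 5005 and 4736 CPM in DM, 3253 and 3230 CPM in DM+Met, and 7200 and 8015 CPM in CM. No gene is on both lists.

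Along the pathway, Slc2a3, the glucose transporter GLUT3, was at 6.93 and 7.002 in DM and at 5.53 and 5.91 in DM+Met (change -1.25, SE 0.24, adjusted p = 0.167). Pfkp, a phosphofructokinase, was at 7.99 and 7.99 in DM and at 7.34 and 7.22 in DM+Met (change -0.71, SE 0.15, adjusted p = 0.190). Tpi1, triosephosphate isomerase, was at 8.18 and 7.97 in DM and at 6.76 and 7.08 in DM+Met (change -1.16, SE 0.17, adjusted p = 0.0560). In all of these the media did not overlap, and Tpi1 came closest to the threshold. The annotated 3′ end of Tpi1 overlaps that of Spsb2 on the other strand by 34 bases, and that of Pfkp overlaps Pitrm1 by 748 bases (GENCODE vM21), and the treatment of strand is not given in the sources used here. Pgk1, phosphoglycerate kinase, was at 7.88 and 8.10 in DM and at 7.20 and 7.13 in DM+Met (change -0.83, SE 0.15, adjusted p = 0.158). Named after their values were seen, Hk2 (hexokinase) differed by -1.04, Ldha (lactate dehydrogenase) by -0.60, Pkm (pyruvate kinase) by -0.47 and Gapdh by -0.32. The exceptions were Eno3, at 0.04, and Hk3, at 0.60, both lowly read.

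**Figure D2:**
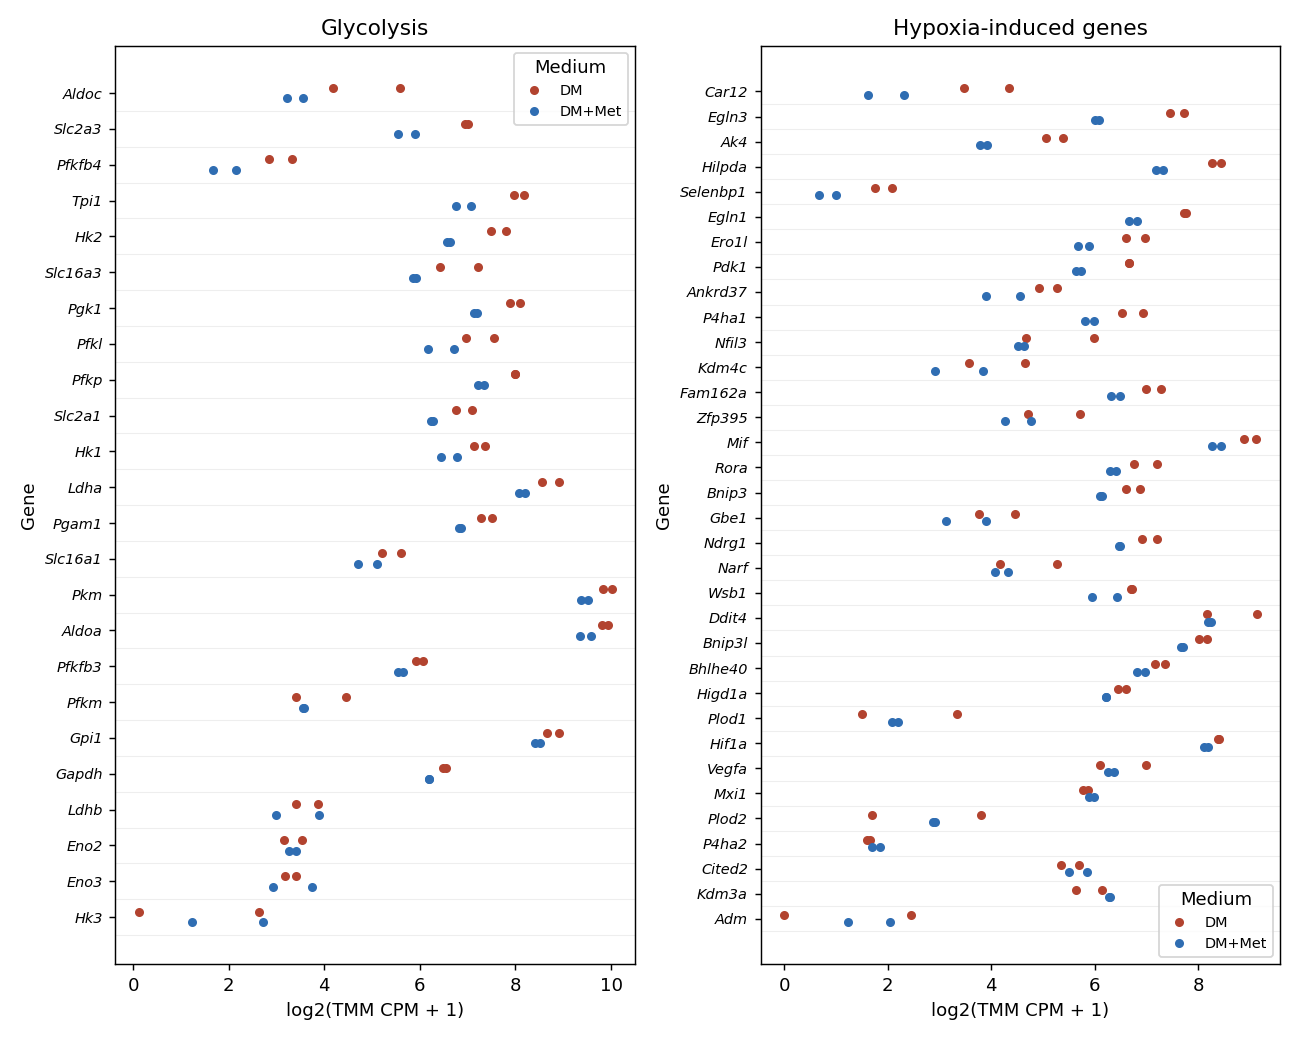
Levels of the 24 glycolysis genes and the 34 hypoxia-induced genes in each DM and DM+Met library, on the log2(TMM CPM + 1) scale of the x axis, with 1 gene per line and 1 point per library. In 19 glycolysis and 21 hypoxia-induced genes both DM+Met points lie left of both DM points.

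The start regions of these genes are shown because HIF binds DNA at a short core. Of this core only the form ACGTG was searched for, so other forms were not counted or marked. Among 28 hypoxia-induced genes with a RefSeq promoter entry (GRCm38.p6), 18 (64.3%) held ACGTG or its reverse, CACGT, in the 250 bases before a start. The count was 12 of 23 (52.2%) for glycolysis genes and 2415 of 9625 (25.1%) for all tested genes with an entry. Genes with several starts were counted once, if any window held the letters. The hypoxia list consists of genes known to be induced by hypoxia. The glycolysis list is a list of the pathway, of which most enzymes but not all members are HIF targets. These shares therefore describe the lists and not the effect of methionine, and a match is not a binding site. The windows of Egln3 (chr12:54203875-54204124, minus strand), Hilpda (chr6:29272376-29272625, plus strand) and Pgk1 (chrX:106186850-106187099, plus strand) follow, 5′ to 3′ on the strand of the gene. ACGTG or its reverse is in capitals.
Egln3: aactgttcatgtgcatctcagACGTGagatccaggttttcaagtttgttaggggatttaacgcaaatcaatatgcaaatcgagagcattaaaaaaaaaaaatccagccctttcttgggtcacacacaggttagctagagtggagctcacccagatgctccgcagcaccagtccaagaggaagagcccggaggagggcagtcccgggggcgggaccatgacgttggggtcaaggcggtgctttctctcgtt
Hilpda: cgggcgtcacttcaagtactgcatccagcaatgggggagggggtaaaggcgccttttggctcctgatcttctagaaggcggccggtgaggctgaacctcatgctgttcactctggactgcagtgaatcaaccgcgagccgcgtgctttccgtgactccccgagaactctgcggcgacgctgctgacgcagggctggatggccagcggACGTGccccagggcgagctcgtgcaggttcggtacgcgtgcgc
Pgk1: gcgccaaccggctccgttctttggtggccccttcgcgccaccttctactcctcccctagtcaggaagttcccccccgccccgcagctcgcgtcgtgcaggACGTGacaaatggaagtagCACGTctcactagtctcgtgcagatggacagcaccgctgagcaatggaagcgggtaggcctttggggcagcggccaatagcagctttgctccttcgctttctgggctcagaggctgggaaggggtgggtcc
Egln3 and Hilpda each hold 1 match to these letters and Pgk1 holds 2, 1 in each direction. They were chosen because they hold a match, and the windows of Tpi1 and Pfkp do not.

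Among the 5 called genes that rose, Gh changed most. Gh encodes growth hormone, which is made chiefly in the pituitary. Its level was 1.15 and 1.47 in DM (12 and 20 reads) and 5.59 and 5.85 in DM+Met (562 and 675 reads). The media were far apart, and CM, at 5.14 and 5.07, stood with DM+Met. Gh rose by 4.41 (SE 0.37, n = 2 per medium, adjusted p = 0.00168), a ratio of 21.2 on the scale with 1 added. The change was 4.57 against DM library 1, 4.25 against DM library 2 and 4.57 without Rn45s. Gh lies on chr11:106300271-106301865 (minus strand), and no tested row overlaps it in GENCODE vM21. Other pituitary hormones gave other values. Prl, prolactin, was at 1.504 and 1.80 in DM and had 0 reads in both DM+Met libraries, Pomc differed by -0.40, and 6 of the 9 pituitary genes listed had too few reads to test.

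Ctse encodes cathepsin E, an aspartic protease of the endosomal compartment. It was at 3.29 and 3.32 in DM and at 6.68 and 6.60 in DM+Met, with CM between them at 6.07 and 5.61 and nearer to DM+Met. Ctse rose by 3.33 (SE 0.26, n = 2 per medium, adjusted p = 0.00168), by 3.35 against DM library 1 and 3.32 against DM library 2. Over the 43 lysosome and autophagy genes tested, the median change was 0.07, with 16 not overlapping and higher and 6 lower, and Ctse alone was called. Ctsa, a lysosomal carboxypeptidase, was at 4.84 and 4.91 in DM and at 5.72 and 5.47 in DM+Met (change 0.72, adjusted p = 0.381). The annotated 3′ end of Ctsa overlaps Pltp on the other strand by 1515 bases, and the treatment of strand is not given.

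Of the ribosomal protein genes, 2 were called, and both rose. Rplp1, a protein of the ribosomal stalk, was at 10.61 and 10.42 in DM and at 12.11 and 12.27 in DM+Met (change 1.67, SE 0.14, adjusted p = 0.00168). Rps15a, of the small subunit, was at 10.21 and 10.11 in DM and at 11.36 and 11.21 in DM+Met (change 1.12, SE 0.13, adjusted p = 0.0164). Neither overlapped between media. CM was above DM+Met for Rplp1, at 12.62 and 12.60, and between the media for Rps15a, at 11.000 and 11.01. Of 82 cytosolic ribosomal protein genes, 43 had a higher mean and 38 a lower one. Their median change was 0.02, 23 were not overlapping and higher, and 15 lower.

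Rps15a-ps6, a processed copy of Rps15a that lies within Nudcd3, moved the other way, from 9.38 and 9.35 in DM to 8.28 and 7.94 in DM+Met. It fell by 1.26 (SE 0.16, n = 2 per medium, adjusted p = 0.0240). Of the reads in the rows Rps15a, Rps15a-ps6 and Rps15a-ps4, the pseudogene Rps15a-ps6 took 35.1% and 35.8% in DM, 10.4% and 9.19% in DM+Met, and 13.1% and 11.9% in CM. Rps15a itself took 62.4% and 60.5% of them in DM against 88.2% and 89.2% in DM+Met. Counting can split reads between near-identical copies, which makes the levels of these 3 rows uncertain, and whether reads were assigned alike in all libraries was not tested.

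**Figure D3:**
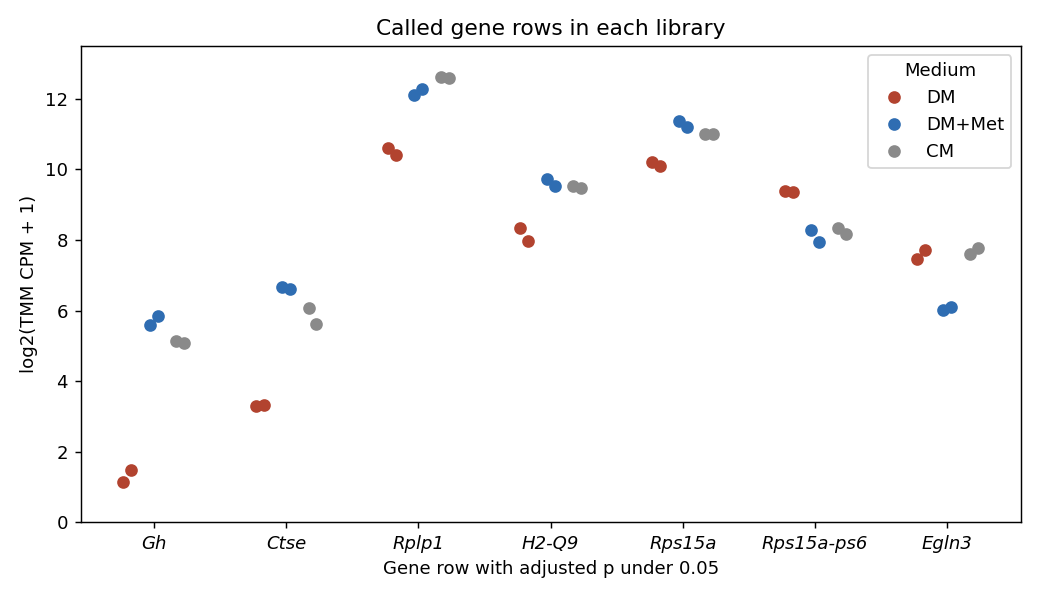
Levels of the 7 called gene rows in each library, on the log2(TMM CPM + 1) scale of the y axis, with 1 point per library and a colour per medium. The DM and DM+Met points do not overlap in any of the 7 rows, and the CM points lie nearer to DM+Met in all but Egln3.

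H2-Q9 is a nonclassical MHC class I gene. It was at 8.34 and 7.97 in DM, and at 9.73 and 9.53 in DM+Met, without overlap, and CM was at 9.53 and 9.48. H2-Q9 rose by 1.48 (SE 0.16, n = 2 per medium, adjusted p = 0.0116), by 1.29 against DM library 1 and 1.66 against DM library 2. It has near-identical neighbours whose reads counting could split, and these differed in both directions, with H2-Q4 at 0.68, H2-Q7 at 0.54, H2-Q8 at 0.31, H2-Q5 at -0.79 and H2-Q10 at -0.94. These neighbours were named after their values were seen.

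The classical MHC class I chain H2-K1 was at 10.14 and 10.30 in DM and at 11.36 and 11.13 in DM+Met (change 1.03, SE 0.14, adjusted p = 0.0543). B2m, its light chain, was at 12.16 and 11.74 in DM and at 12.77 and 12.72 in DM+Met (change 0.80, SE 0.17, adjusted p = 0.193). Both were higher in each DM+Met library than in each DM library, and both missed the threshold. Of 23 genes of MHC class I and peptide loading, 17 had a higher mean, 12 were not overlapping and higher, and 3 lower. The median change was 0.34, and H2-Q9 alone was called. Psmb9, a subunit of the immunoproteasome, stood against the group at -0.78 (adjusted p = 0.257).

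Interferon-stimulated genes had 35 of 48 higher means, with 20 not overlapping and higher and 4 lower, a median change of 0.24 and 0 called (7 at an unadjusted p below 0.05, all higher). Without DM+Met replicate 1 the median was 0.11. Bst2, tetherin, was at 2.32 and 2.39 in DM and at 4.16 and 4.15 in DM+Met (change 1.81, adjusted p = 0.232). Isg15, a ubiquitin-like modifier, was at 2.99 and 2.73 in DM and at 4.48 and 4.67 in DM+Met (change 1.71, adjusted p = 0.284). The media did not overlap for either gene, but Ifit3, of the same family of responses, stood at -1.28 (named after its value was seen). The levels of markers of other cell types are given beside these groups. The summed level of CD8 T and NK cell markers was 47.3 and 48.1 CPM in DM and 65.3 and 63.4 CPM in DM+Met, with 3 of 7 not overlapping and higher. Most of that rise lay in Nkg7, which is also on the list of cytotoxic effectors. On the log2 scale Nkg7 was at 2.35 and 1.97 in DM and at 3.77 and 4.56 in DM+Met. Of the 7 markers, 5 had a higher mean and 2 a lower one. The summed level of myeloid and dendritic markers was 378 and 251 CPM in DM and 330 and 359 CPM in DM+Met. That of B cell markers was 79.9 and 81.8 CPM in DM and 58.5 and 68.9 CPM in DM+Met. That of erythroid markers was 75.0 and 42.4 CPM in DM and 21.5 and 24.5 CPM in DM+Met. Their part in these results was not tested.

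None of the genes that handle methionine itself passed the adjusted threshold. Slc43a2, a transporter of large neutral amino acids including methionine, was at 4.97 and 5.43 in DM and at 3.64 and 4.13 in DM+Met (change -1.32, SE 0.33, adjusted p = 0.267). Slc7a5, the LAT1 transporter, was at 5.55 and 5.38 in DM and at 5.99 and 6.38 in DM+Met (change 0.72, SE 0.25, adjusted p = 0.412). The media did not overlap for either, and the adjusted p of both missed the threshold. Slc3a2, the partner of Slc7a5 in that transporter, was at 7.845 and 7.695 in DM and at 7.80 and 8.15 in DM+Met, with overlap (change 0.21, adjusted p = 0.766). Mat2a, which makes S-adenosylmethionine in most cells outside the liver, was at 8.75 and 8.19 in DM and at 8.38 and 8.499 in DM+Met. The media overlapped, and the difference of -0.03 had an interval from -0.47 to 0.40. Over the 10 genes of the methionine cycle and transsulfuration that were tested, 5 had a higher mean and 5 a lower one, 3 were not overlapping in each direction, and 2 were lower at an unadjusted p below 0.05. Their median was 0.05, and it was 0.24 against DM library 1 and -0.18 against DM library 2. Mat1a, the form of the same enzyme known from liver, had 38 and 27 reads in DM and 0 in both DM+Met libraries (adjusted p = 0.288), and 0 in both CM libraries. Over 23 amino acid transporters, 15 had a higher mean, and 3 were not overlapping and higher and 3 lower. Their median of 0.20 depended on single libraries, being 0.46 against DM library 1, -0.15 against DM library 2 and -0.05 without DM+Met replicate 1.

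In the polyamine and methionine salvage group, Odc1, ornithine decarboxylase, was at 5.27 and 5.20 in DM and at 6.39 and 6.24 in DM+Met (change 1.08, SE 0.20, adjusted p = 0.158). Mtap, which recycles the methylthio group, was at 4.996 and 4.77 in DM and at 4.12 and 4.11 in DM+Met (change -0.77, adjusted p = 0.496). Both were apart between media, in opposite directions, and the group's 16 genes had a median of 0.07. Gclc, the first enzyme of glutathione synthesis, was at 6.46 and 6.63 in DM and at 7.61 and 7.45 in DM+Met (change 0.98, SE 0.18, adjusted p = 0.158). Of 33 glutathione and antioxidant genes, 10 were not overlapping and higher and 6 lower. Among 45 methyltransferases and demethylases of histones and DNA, 9 were not overlapping in each direction and the median was 0.06. Dot1l, the histone H3 lysine methyltransferase of gene bodies, was at 6.19 and 6.50 in DM and at 5.91 and 5.93 in DM+Met (change -0.42, adjusted p = 0.550). Ezh2, of the Polycomb complex, was at 7.06 and 7.10 in DM and at 7.71 and 7.57 in DM+Met (change 0.56, adjusted p = 0.359).

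Amino acid shortage is sensed by GCN2, which raises the factor ATF4. Of 32 ATF4 response genes tested, 21 had a higher mean in DM+Met, 12 were not overlapping and higher and 3 lower, and 0 were called. The median of 0.22 was 0.30 against DM library 1 and 0.07 against DM library 2. Atf5 was at 7.09 and 6.02 in DM and at 7.54 and 7.98 in DM+Met (change 1.20, adjusted p = 0.288), and Ddit3, the factor CHOP, was at 7.89 and 7.52 in DM and at 8.16 and 8.28 in DM+Met (change 0.51, adjusted p = 0.390). Both annotated genes overlap another tested gene, Nup62 and Mars. Stc2, a secreted glycoprotein, was at 3.08 and 2.24 in DM and at 0.67 and 0.00 in DM+Met (change -2.32, adjusted p = 0.288). The energy sensor subunit Prkaa1 was at 4.42 and 4.52 in DM and at 5.03 and 4.82 in DM+Met (change 0.45, interval -0.21 to 1.12, adjusted p = 0.679). Xbp1, a factor of the unfolded protein response, was at 6.66 and 6.82 in DM and at 6.42 and 6.68 in DM+Met (change -0.19, interval -0.60 to 0.22). Its media overlapped, and the sign turned to 0.17 with library totals. A 3′ tag does not tell spliced from unspliced Xbp1.

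Pdcd1, which encodes the inhibitory receptor PD-1, was at 4.29 and 3.22 in DM and at 2.96 and 3.36 in DM+Met, or 182 and 94 reads against 81 and 110. The media overlapped. The change was -0.60 (SE 0.77, interval -2.32 to 1.13, adjusted p = 0.873), -1.13 against DM library 1 and -0.06 against DM library 2. So 1 DM library decides its size, and the interval, from 2 libraries per medium, includes changes in both directions. Over 14 inhibitory receptor genes, 11 had a lower mean, 5 were not overlapping and lower and 1 higher, with a median of -0.22 that became 0.10 with library totals and -0.35 against DM library 2. Ctla4 was at 6.95 and 7.36 in DM and at 6.99 and 6.995 in DM+Met, with overlap. Icos, a costimulatory receptor, was at 9.25 and 9.24 in DM and at 9.39 and 9.40 in DM+Met, apart by a small margin (change 0.15, adjusted p = 0.772). Nrp1 was at 5.92 and 6.30 in DM and at 6.64 and 6.45 in DM+Met, without overlap (change 0.44, adjusted p = 0.691).

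Among the widest gaps at a level of at least 10 CPM was Foxp3, the factor that defines regulatory T cells. Its row was at 5.71 and 4.81 in DM and at 7.21 and 7.40 in DM+Met (change 2.05, SE 0.38, adjusted p = 0.158). The row Ccdc22, a gene of endosomal sorting, ran in parallel, at 5.22 and 4.20 in DM and at 6.81 and 6.99 in DM+Met (change 2.19, adjusted p = 0.193). The annotated genes overlap at their 3′ ends on opposite strands by 1437 bases, at chrX:7593809-7595245, where a 3′ library places its reads. Without a known strand setting, reads of Foxp3 and Ccdc22 cannot be told apart. Of the other regulatory T cell genes, Il2ra was at 10.11 and 9.97 in DM and at 10.41 and 10.27 in DM+Met (change 0.30, adjusted p = 0.519), and Lrrc32 stood at -0.48. Over the 17 genes of that list, 7 were not overlapping and higher and 2 lower, with a median of 0.17 that was 0.11 against DM library 1.

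Effector genes included some with higher levels in DM+Met, and none of them was called. Il9, a cytokine of mast cell and mucosal responses, was at 4.26 and 5.26 in DM and at 6.91 and 6.57 in DM+Met (change 1.98, SE 0.49, adjusted p = 0.266). Nkg7, a granule protein of cytotoxic cells, was at 2.35 and 1.97 in DM and at 3.77 and 4.56 in DM+Met (change 2.01, adjusted p = 0.190). Both were apart between media. Ifng was at 0.14 and 1.64 in DM and at 1.88 and 2.26 in DM+Met, and Gzmb was at 4.27 and 5.31 in DM and at 4.38 and 4.53 in DM+Met. Gzmb overlapped and Ifng did not, with few reads in DM. Gzma, a granzyme, was at 2.48 and 2.00 in DM and at 2.78 and 3.18 in DM+Met, without overlap (change 0.74, adjusted p = 0.513). Of 12 genes of granzymes and cytotoxic effectors, 10 had a higher mean, 6 were not overlapping and higher and 0 lower, and the median was 0.46. Of 21 effector cytokine genes, 7 were not overlapping and higher and 1 lower, and the median of 0.15 was 0.06 against DM library 1 and 0.23 against DM library 2. H60b, a ligand of the receptor NKG2D, had the widest gap of the lower genes at 10 CPM or more, from 5.57 and 4.90 in DM to 2.06 and 2.07 in DM+Met (change -3.17, SE 0.48, adjusted p = 0.0675), and CM was at 2.47 and 2.24.

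At a mean of at least 10 CPM, 24 of 7697 rows had both DM+Met libraries at least 1 log2 unit above both DM libraries, and 20 had them at least 1 unit below. Over all 12770 rows the counts were 140 above and 318 below. Beside the genes already named, the widest gaps above were those of Sertad3, a transcriptional coregulator, at 1.65 and 2.68 in DM and at 4.12 and 4.50 in DM+Met (change 2.14, adjusted p = 0.194), of Gsto1, a glutathione transferase, with a change of 1.64, and of Jagn1, a protein of the early secretory pathway, with 1.40. The annotated Gsto1 lies over its whole length of 9821 bases within Cfap43 on the other strand, and the treatment of strand is not given. The widest gaps below included Acvrl1, the receptor ALK1, at 4.12 and 4.47 in DM and at 2.35 and 1.78 in DM+Met (change -2.23, adjusted p = 0.173). Pik3cg, the catalytic subunit of PI3K gamma, was at 5.35 and 5.41 in DM and at 3.88 and 4.08 in DM+Met (change -1.40, adjusted p = 0.241). Neither gene passed the adjusted threshold, though each was apart between media. The other rows below were Lad1 (-1.94), Cxcl2, a neutrophil chemokine (-1.73), Mroh2a (-2.06), Pde2a, a cyclic nucleotide phosphodiesterase (-1.74), and Dtx1, a regulator of Notch signaling (-1.49).

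Of 53 genes of mitosis and G2/M, 36 had a lower mean in DM+Met, 19 were not overlapping and lower and 3 higher, and the median was -0.36. With library totals that median was -0.02, and without DM+Met replicate 1 it was -0.21. Nusap1, a spindle protein, was at 6.03 and 5.57 in DM and at 4.27 and 4.34 in DM+Met, and at 7.93 and 7.84 in CM (change -1.50, SE 0.23, adjusted p = 0.0675). Mki67, the proliferation antigen, was at 5.75 and 6.35 in DM and at 5.09 and 5.40 in DM+Met (change -0.80, adjusted p = 0.347). Both were apart, with DM+Met lowest. The 49 genes of DNA replication had a median of 0.07, with 9 not overlapping and higher and 8 lower. Whether the groups of mitosis and replication genes differ in their change was not tested.

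**Figure D4:**
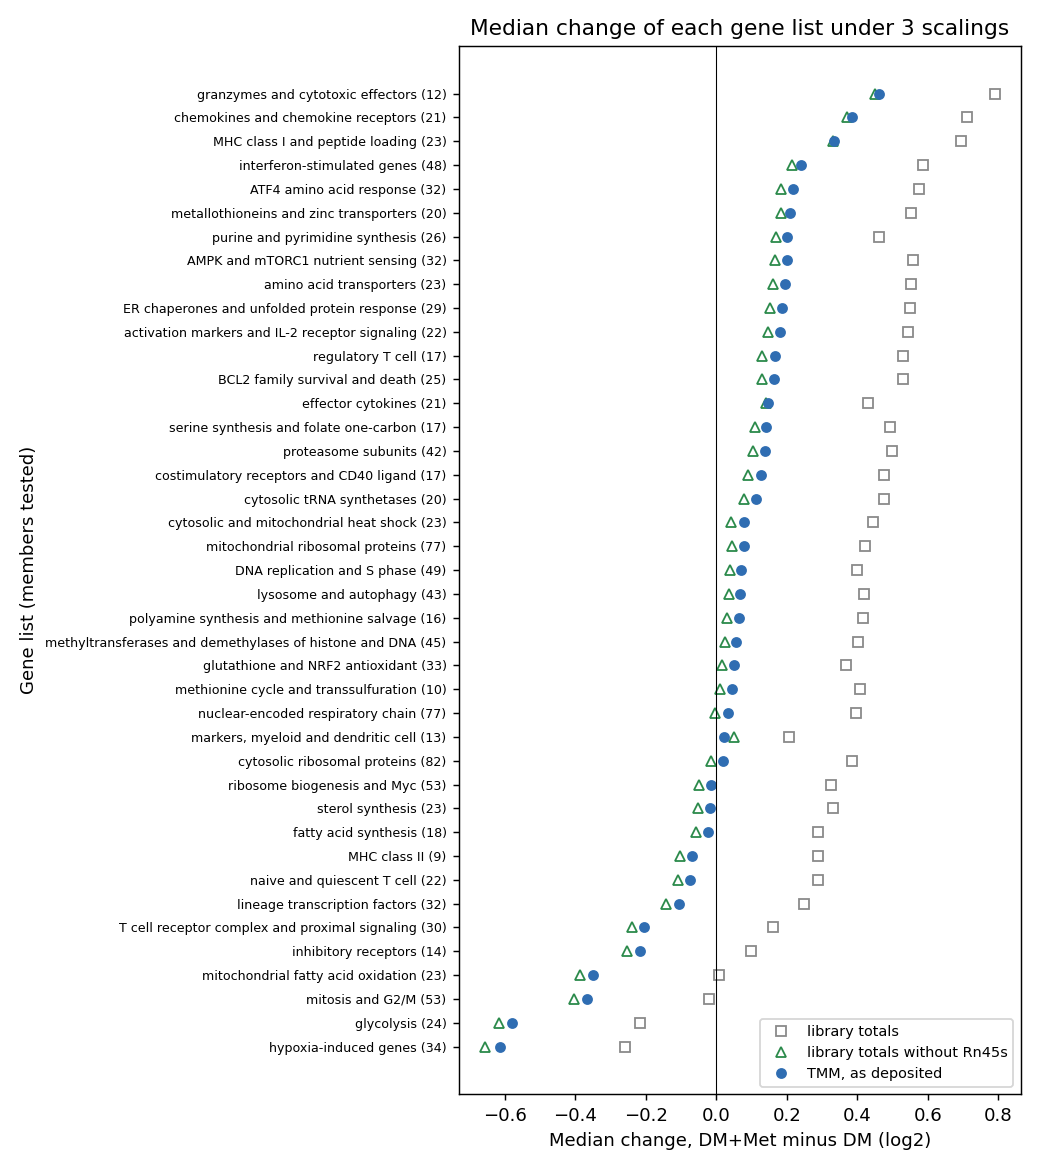
Median change, DM+Met minus DM in log2 units on the x axis, of each gene list with at least 9 tested members, under 3 scalings shown by symbol. Glycolysis and hypoxia-induced genes lie lowest and stay below 0 under all 3 scalings, while library totals move every list to the right.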

How the data were processed

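The deposited values are log2(TMM CPM + 1) values, which the authors computed from 3′-end (QuantSeq) reads, 1 column per library and 23282 gene rows. The processing notes of the submitters name Bowtie2, bedtools and mm10, without role or version. Which annotation and strand setting were used is not given in the sources used here. The equal steps of the values gave back the reads (within 0.1 of a whole number for at least 99.776% of values up to 300 reads). Read counts without molecular identifiers are not independent molecules. Rows with at least 10 reads, at the median scaled depth, in at least 2 of 6 libraries and at least 15 reads in all were tested with limma 3.58.1 (R 4.3.3; lmFit, eBayes with an intensity trend) over all 3 media, two-sided, with Benjamini-Hochberg adjustment over 12770 rows at 0.05. Intervals are 95% intervals of that model and rest on the spread between libraries. The procedure was also run on simulated reads drawn with a fixed spread for all genes. That spread was not matched to the spread between the real libraries, so the run does not show how the test performs on these data. Changes on this scale understate those of lowly read genes. Each change was also taken against each DM library, with library totals, and with scalings that left out Rn45s.

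Genes and lists were chosen with earlier results of these data known. Named were all called genes, the 12 widest gaps each way at 10 CPM or more, genes the study asked about, and up to 4 genes of lowest p per list. Others are marked as named after their values were seen. Counts of genes not overlapping compare both libraries of each medium. Positions come from GENCODE vM21 and promoter sequences from RefSeq, both on GRCm38, the assembly also called mm10, with genes of chromosome 18 left out of the promoter counts. A list of mitochondrially encoded genes matched no row.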

Additional observations from a re-analysis of the deposited data

How the results depend on the processing

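The count of called genes, 7, was the same with library totals without Rn45s, with a median-of-ratios scaling without Rn45s and with the replicate block on the file number, and was 5 with a pseudocount of 0.1. It was 55 with library totals (51 higher), 13 with a pseudocount of 5, 2 without a filter, 27 with 10 reads in every library, 17 with a mean log2 of at least 2, 21 with voom and 14 with a robust prior. It was 0 without the intensity trend (1192 rows at an unadjusted p below 0.05) and 0 with the DM and DM+Met libraries only (1303 rows). Leaving out each of the 6 libraries in turn gave 0 calls each, with 431 to 2006 rows at an unadjusted p below 0.05, the lone sample of a medium being assumed to vary like the others. The direction of the 7 called genes held under all 19 alternatives, but most of these could not have turned it. The settings of filter, trend, prior, block and CM libraries leave the change itself as it was. Rows whose media do not overlap also keep their sign when 1 library is left out. The sign of Mat2a turned with library totals (0.33), and ranged from -0.31 to 0.25 when 1 library was left out, being above 0 without DM replicate 1 (0.25) and without DM+Met replicate 1 (0.03), and that of Xbp1 with library totals (0.17). Of 46 list medians, 10 changed sign with library totals, 3 with library totals without Rn45s, 3 without DM+Met replicate 1 and 4 without DM+Met replicate 2. The cause was not tested, apart from the median shift of library totals. The numbers come from the file names, and the deviations of same-numbered DM and DM+Met libraries correlated at -0.03. This value cannot show whether same-numbered libraries share anything beyond the number. The block changed no call. With 2 libraries per medium, the median standard error was 0.44 on the log2 scale.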

Other observations

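Some rows had reads in both libraries of DM and none in DM+Met, or the reverse. They were picked after the values were seen and are described without a test. In 185 rows each DM library had 10 or more reads and both DM+Met libraries had 0, and in 113 of these both CM libraries had 0 as well. The reverse held for 68 rows, 25 of them at 0 in both CM libraries. The reads were few, with a median of 22 and 18 per library. Of the first group, 5 genes are given as examples, also picked after their values were seen. Drd1, a dopamine receptor of neurons, had 122 and 116 reads in DM and 24 and 10 in CM. Prom1, a stem cell membrane protein, had 184 and 57 reads in DM and 0 and 4 in CM. Tspan10, a tetraspanin, had 64 and 82 reads in DM and 0 in CM. Brinp3, a neural gene, had 65 and 80 reads in DM and 0 in CM, and Sox11, a neural factor, had 68 and 53 in DM and 0 and 5 in CM. The second group held Plxnb2, a semaphorin receptor, with 21 and 74 reads in DM+Met and 127 and 81 in CM, Ccl2, a chemokine, with 15 and 14 in DM+Met, and Cxcl10, an interferon-induced chemokine, with 30 and 20 in DM+Met.

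In the T cell receptor complex and its proximal signaling, 20 of 30 genes had a lower mean in DM+Met, 15 not overlapping and lower and 3 higher, with a median of -0.20 that was 0.16 with library totals. Ptpn22, a phosphatase that limits receptor signaling, was at 6.39 and 6.55 in DM and at 5.66 and 5.58 in DM+Met (change -0.85, limma adjusted p = 0.232). Cd4 was at 7.34 and 7.50 in DM and at 7.89 and 8.12 in DM+Met (change 0.59, limma adjusted p = 0.336). Proteasome genes had 31 of 42 higher means, 16 not overlapping and higher and 6 lower, with a median of 0.14 (0.12 to 0.23 with 1 DM or DM+Met library left out), and mitochondrial fatty acid oxidation genes had 18 of 23 lower means and a median of -0.35 that was 0.01 with library totals and -0.19 against DM library 1 alone. Myb, a factor of immature and cycling lymphocytes, was at 6.00 and 5.60 in DM and at 7.14 and 7.33 in DM+Met (change 1.43, limma adjusted p = 0.158). Myb was named after its values were seen. Mthfd1l, a mitochondrial folate enzyme, was at 8.26 and 8.15 in DM and at 7.11 and 7.51 in DM+Met (change -0.89, limma adjusted p = 0.189).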
